A study of Mus musculus with 11 samples.

Results

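The Cd44 locus held 16 of the 38509 regions of open chromatin (peaks) in the deposited ATAC-seq table. Cd44 was chosen with earlier results of these data known, and its peaks were then assigned by position only. A peak belonged to Cd44 when its centre lay nearest to a RefSeq start site of Cd44, which has 1 start site in 6 annotated transcripts. ATAC-seq cuts DNA with a transposase where chromatin is accessible, so the signal of a peak measures how open that stretch is. The table covers 11 libraries of mouse CD4 T cells sorted from mixed spleen and lymph node and used untreated, directly after isolation. The genotype given for every library is wildtype C57BL/6 Foxp3-GFP, with polyclonal cells. The naive group (n = 2) was sorted as CD44low and the Teff group (n = 3) as CD44high FOXP3– CD73low FR4low. The anergic group (n = 3) was sorted as CD44high FOXP3– CD73high FR4high NRP1+, and the Treg group (n = 3) as FOXP3+ CD25+, with no CD44 gate stated. CD44 protein therefore took part in the sort of 3 of the 4 groups, which bears on every comparison with naive cells below. Whether replicates are separate mice is not given by the labels, and the p-values below rest on the spread among the libraries at hand, which may be technical.

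Cd44 encodes a cell-surface glycoprotein that binds hyaluronan, a sugar polymer of the extracellular matrix, and links adhesion at the membrane to the actin cytoskeleton. T cells raise it after meeting antigen and keep it high as effector and memory cells, so that CD44 is the usual marker separating naive from antigen-experienced cells. Promoter peaks mark the start of a gene, and distal peaks mark elements that may act as enhancers from a distance. Nearness to a start site does not show which gene an element acts on.

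The gene lies on the minus strand of chr2:102811141-102901665 (mm10, the mouse build GRCm38), so a larger coordinate is further upstream. 7 of the peaks lay upstream of the gene, 1 covered the start site and the first exon, and 8 lay within introns. The upstream peaks were centred 80.2, 68.7, 55.4, 47.0, 46.6, 11.5 and 7.99 kb from the start site. The intronic peaks were centred 0.703, 14.1, 14.9, 27.6, 33.8, 34.1, 48.2 and 52.5 kb into the gene. Only 152 of 14242 genes with a peak had 16 or more, and the median gene had 2.

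The sequences below are among those that the results turn on, read from the mm10 genome on the plus strand, 5′ to 3′, over the central 300 bases of a peak or the whole peak where it is shorter. Capitals mark matches to the motifs described next. The peaks at 55.4 and 80.2 kb upstream took different shares of the locus signal in the subsets.
Upstream 55.4 kb, chr2:102956868-102957167: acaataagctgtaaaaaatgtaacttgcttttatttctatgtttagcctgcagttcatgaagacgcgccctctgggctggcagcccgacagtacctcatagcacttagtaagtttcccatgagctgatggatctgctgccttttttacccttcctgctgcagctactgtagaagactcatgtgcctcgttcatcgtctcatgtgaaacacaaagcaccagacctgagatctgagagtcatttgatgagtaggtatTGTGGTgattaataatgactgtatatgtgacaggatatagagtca
Upstream 80.2 kb, chr2:102981671-102981970: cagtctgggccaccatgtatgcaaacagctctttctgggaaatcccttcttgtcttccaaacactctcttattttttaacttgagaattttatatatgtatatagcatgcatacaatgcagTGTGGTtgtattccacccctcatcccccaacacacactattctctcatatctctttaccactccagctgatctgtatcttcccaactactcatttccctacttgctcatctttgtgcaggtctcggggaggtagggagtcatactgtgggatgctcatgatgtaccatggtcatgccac
The peaks at 47.0 and 46.6 kb upstream are neighbours that differed in how their signal was divided between subsets.
Upstream 47.0 kb, chr2:102948533-102948832: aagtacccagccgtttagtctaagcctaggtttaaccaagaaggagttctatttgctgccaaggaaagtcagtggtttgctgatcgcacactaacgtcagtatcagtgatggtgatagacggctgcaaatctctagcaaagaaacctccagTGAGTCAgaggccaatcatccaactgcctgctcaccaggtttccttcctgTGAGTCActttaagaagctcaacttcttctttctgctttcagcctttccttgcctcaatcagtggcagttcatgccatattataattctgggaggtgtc
Upstream 46.6 kb, chr2:102948135-102948391: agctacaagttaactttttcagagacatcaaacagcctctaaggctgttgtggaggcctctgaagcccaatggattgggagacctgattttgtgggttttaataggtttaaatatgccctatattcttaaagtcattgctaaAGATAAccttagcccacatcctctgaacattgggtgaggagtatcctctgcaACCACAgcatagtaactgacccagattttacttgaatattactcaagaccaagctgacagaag
The peak at 7.99 kb upstream was highest in naive cells.
Upstream 7.99 kb, chr2:102909515-102909790: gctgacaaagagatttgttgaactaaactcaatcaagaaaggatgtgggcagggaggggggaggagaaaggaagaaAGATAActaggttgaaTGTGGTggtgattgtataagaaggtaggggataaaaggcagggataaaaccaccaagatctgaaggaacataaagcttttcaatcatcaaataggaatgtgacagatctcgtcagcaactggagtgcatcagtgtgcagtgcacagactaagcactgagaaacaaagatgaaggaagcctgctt
The peak at 14.1 kb within the gene was higher in anergic than in both Teff and Treg cells.
Intron 14.1 kb, chr2:102887435-102887734: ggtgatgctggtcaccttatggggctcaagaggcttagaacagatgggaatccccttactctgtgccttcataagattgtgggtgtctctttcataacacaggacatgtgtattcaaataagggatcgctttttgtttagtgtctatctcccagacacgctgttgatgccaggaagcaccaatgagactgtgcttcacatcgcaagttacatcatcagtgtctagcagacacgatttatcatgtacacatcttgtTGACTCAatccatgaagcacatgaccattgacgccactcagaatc
The last is the 250 bases just before the start site, on the minus strand, from the RefSeq promoter table of GRCm38.p6.
Cd44 promoter, chr2:102901666-102901915: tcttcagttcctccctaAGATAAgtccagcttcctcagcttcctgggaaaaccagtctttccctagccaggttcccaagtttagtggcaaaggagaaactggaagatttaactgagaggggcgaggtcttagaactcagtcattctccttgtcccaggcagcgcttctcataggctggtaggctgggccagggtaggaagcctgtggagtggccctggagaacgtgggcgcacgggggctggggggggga

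Motifs were searched as exact letters on both strands in the central 300 bases of all 38441 peaks on chromosomes, a window that reaches past the edges of narrower peaks. TGTGGT, the core of RUNX sites, was found in 8 of the 16 Cd44 peaks and in 26.3% of all peaks. In this window, the peaks at 55.4 and 80.2 kb upstream each held 1 copy of it and no other motif searched. TGGAAA, a core letter run of NFAT sites, was found in 3 Cd44 peaks and in 21.5% of all peaks. Its match at 11.5 kb upstream lay outside the peak's own edges. TGANTCA, the AP-1 site, was found in 3 Cd44 peaks and in 11.8% of all peaks. The peak at 47.0 kb upstream held 2 copies and its neighbour at 46.6 kb none. The intronic peaks at 14.1 and 48.2 kb held 1 copy each, and at 48.2 kb the match lay outside the peak's own edges. AGATAA, which proteins of the GATA family bind, was found in 7 Cd44 peaks and in 10.8% of all peaks. The 7 include the peaks at 46.6 and 7.99 kb upstream and the intronic peak at 48.2 kb, where this match too lay outside the peak's edges. GGAAGT (ETS) was found in 5 Cd44 peaks and 27.5% of all peaks, and CTTTGA (TCF and LEF factors) in 5 and 19.2%. AGGTGTGA (T-box) was found in 1, at 11.5 kb upstream, against 1.63% of all peaks, and GGGTGTGG (KLF) in 1, at 34.1 kb in the gene, against 4.12%. The NF-kB motif, AAAGGTCA (NR4A) and the IRF motif were found in 0 Cd44 peaks and in 1.91%, 1.40% and 4.73% of all peaks. Most Cd44 peaks are distal, and every motif was more frequent in the 25675 peaks over 1000 bases from a start site than in all peaks. There the shares were 33.1% for TGTGGT, 25.4% for TGGAAA, 15.3% for TGANTCA, 13.8% for AGATAA, 29.2% for GGAAGT and 23.6% for CTTTGA. Some of these letter runs overlap each other, such as GGAAGT and TGGAAA, but no 2 matches in Cd44 peaks shared a base. A match describes letters and does not show that a factor binds there, and a missing match is no evidence about the factor.

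Summed over the 16 peaks, the deposited signal was 1806 ± 103 (SD, n = 2) in naive, 3832 ± 596 (SD, n = 3) in Teff, 6523 ± 399 (SD, n = 3) in anergic and 3547 ± 348 (SD, n = 3) in Treg libraries. The signal is the number of reads in a peak times a factor set for each library by the authors. The anergic libraries (6115 to 6912) lay above all others, the naive libraries lay below all others, and the Teff (3259 to 4449) and Treg (3167 to 3852) libraries overlapped. In sorted bulk samples, fewer cells with an open site and less opening per cell cannot be told apart.

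**Figure D1:**
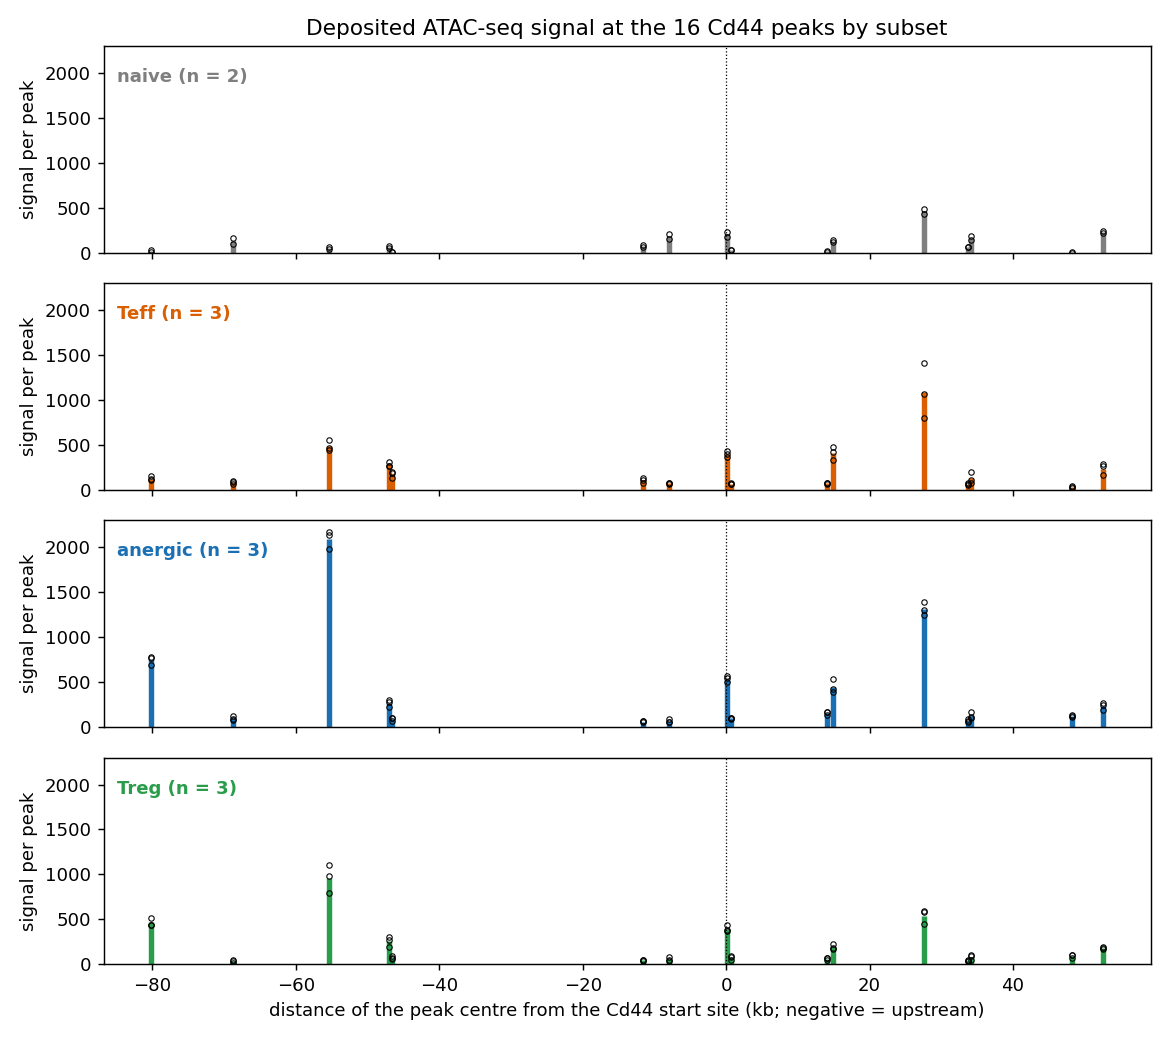
Signal per peak (vertical axis, deposited units) against the distance of the peak centre from the Cd44 start site in kb (negative is upstream), 1 panel per subset, with bars for group means and circles for libraries. The tallest bar stands at 27.6 kb within the gene in the naive and Teff panels and at 55.4 kb upstream in the anergic and Treg panels.

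The subsets also differed in where the signal lay. In naive cells, the peaks at 80.2 and 55.4 kb upstream together carried 3.33% and 3.71% of the locus total in the 2 libraries. They carried 14.9%, 15.7% and 17.7% in the Teff libraries, 44.9%, 42.0% and 43.6% in the anergic libraries and 39.2%, 39.0% and 42.0% in the Treg libraries. The anergic and Treg libraries thus lay close together and apart from the Teff libraries. The 3 intronic peaks between 14.1 and 27.6 kb showed another order, with 31.0% and 35.8% in naive, 44.3%, 41.2% and 36.9% in Teff, 29.8%, 29.0% and 29.4% in anergic and 24.0%, 21.9% and 21.4% in Treg libraries. Here the Teff shares were the highest and the Treg shares the lowest. A share falls where other peaks of the locus rise, so this is not the order of the signal itself. At each of these 3 peaks the mean signal ran anergic, Teff, Treg, naive from the top. These shares are a description of sums over the peaks and were not tested.

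**Figure D2:**
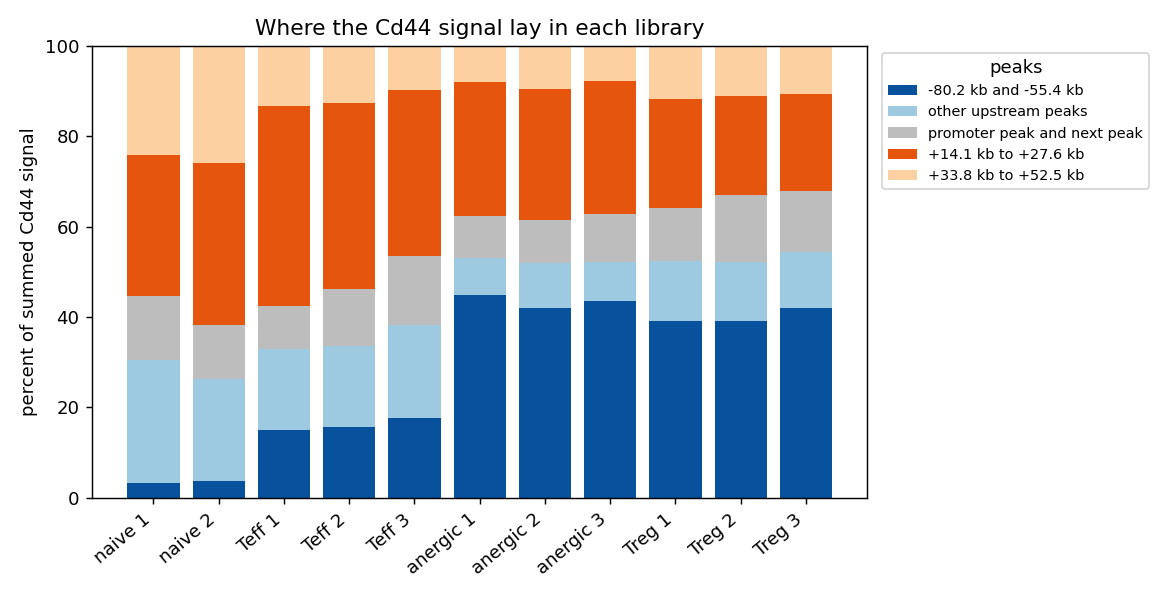
Share of the summed Cd44 signal (percent, vertical axis) in 5 sets of peaks for each of the 11 libraries. The darkest block, the peaks at 80.2 and 55.4 kb upstream, runs from 3.33% to 3.71% in naive, 14.9% to 17.7% in Teff, 42.0% to 44.9% in anergic and 39.0% to 42.0% in Treg libraries.

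Each peak was tested between subsets with limma on log2(signal + 1), fitted over 38493 peaks with the Benjamini-Hochberg adjustment, and was called where the adjusted p was under 0.05. Fold changes are on this log2 scale, which understates changes of low peaks. Against naive cells, 10 Cd44 peaks were higher and 1 lower in Teff cells, where 22.7% of all peaks were higher and 17.4% lower. The median log2 fold change was 1.19 over the Cd44 peaks and -0.03 over all peaks. In anergic against naive cells, 10 were higher and 1 lower, beside 25.3% and 25.1% of all peaks, with medians of 1.59 and -0.04. In Treg against naive cells, 9 were higher and 3 lower, beside 22.3% and 23% of all peaks, with medians of 0.76 and -0.04. Those 3 comparisons share the same 2 naive libraries and are not independent of each other. With scaling by total reads in peaks, the split over all peaks in Treg against naive cells moved from 8568 higher and 8867 lower to 10709 and 5721.

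Among Teff, anergic and Treg cells fewer Cd44 peaks differed. Anergic cells had 5 peaks higher and 1 lower than Teff cells, beside 15.9% and 16.8% of all peaks, with medians of 0.19 over the Cd44 peaks and -0.00 over all peaks. Against Treg cells, anergic cells had 6 higher and 0 lower, beside 19.4% and 14.8% of all peaks, with medians of 0.59 and 0.04. At an unadjusted p under 0.05 the same 6 were the only ones to pass in that comparison, and edgeR and DESeq2 also called 0 lower. Treg cells had 3 higher and 5 lower than Teff cells, beside 14.4% and 18.2% of all peaks, with medians of -0.44 and -0.02. Scaling by total reads changed the split over all peaks in both comparisons with Treg cells. It moved from 7462 higher and 5680 lower to 5078 and 7570 for anergic against Treg, and from 5535 and 6998 to 6935 and 5163 for Treg against Teff. The median of all peaks shifted by over 0.1 with that scaling, from 0.04 to -0.09, from -0.02 to 0.08 and, for Treg against naive, from -0.04 to 0.12.

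**Figure D3:**
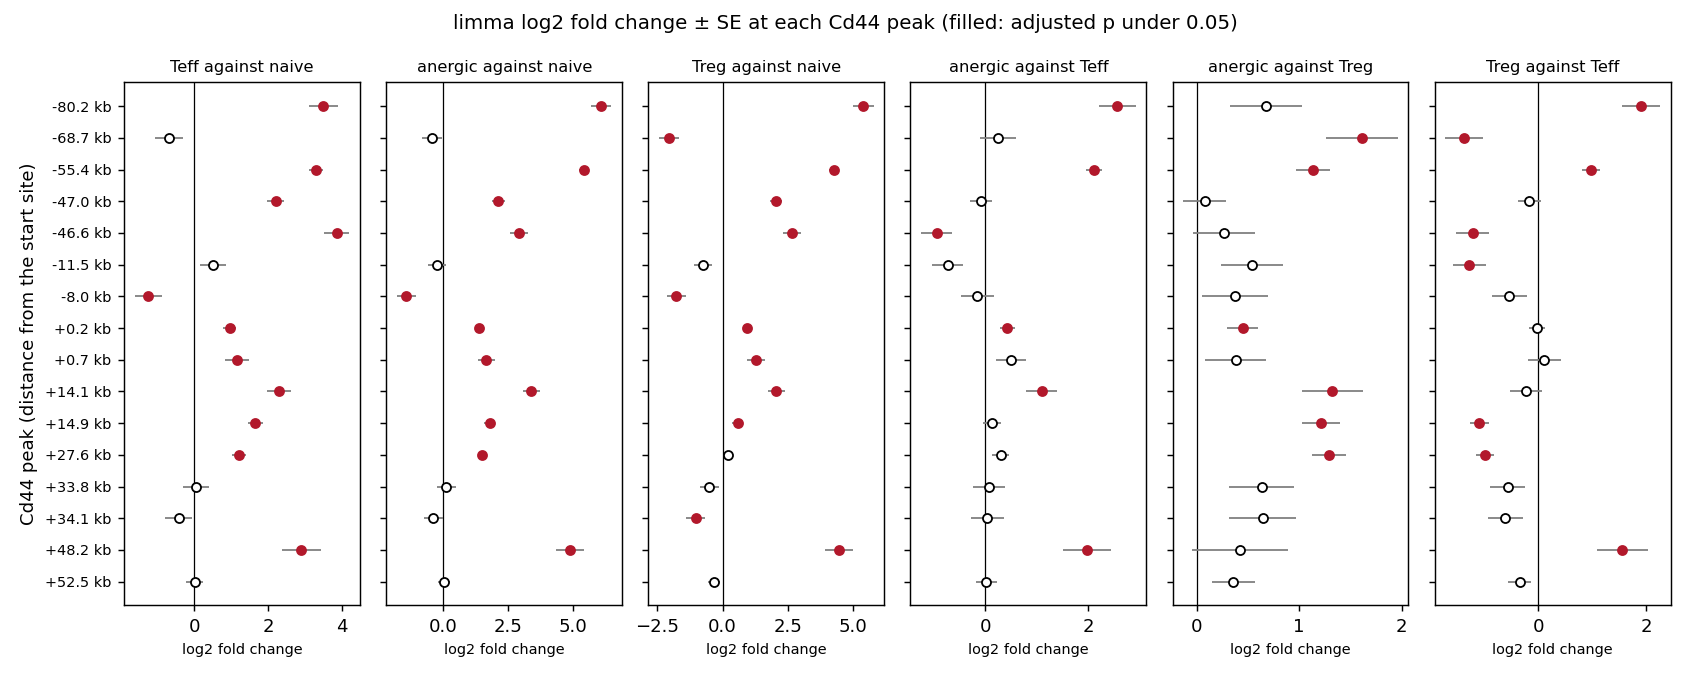
limma log2 fold change with its standard error (horizontal axis) at each of the 16 Cd44 peaks (vertical axis, distance from the start site in kb) in the 6 comparisons, filled where the adjusted p was under 0.05. The peaks at 80.2, 55.4 and 48.2 kb lie furthest right in anergic against Teff, at 2.57, 2.11 and 1.97, and the horizontal scales differ between panels.

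The peak at 55.4 kb upstream (chr2:102956557-102957478) had the largest signal of the locus in anergic and Treg cells. Its signal was 38.2 and 60.4 in the naive libraries, 553, 441 and 462 in Teff, 2170, 2132 and 1978 in anergic, and 980, 798 and 1100 in Treg libraries. The 4 groups did not overlap and ran anergic, Treg, Teff, naive from the top. Group means were 49.3 ± 15.7 (SD, n = 2), 485 ± 59.7 (SD, n = 3), 2093 ± 102 (SD, n = 3) and 959 ± 152 (SD, n = 3) for naive, Teff, anergic and Treg. Each step in that order passed the limma test: the log2 fold change was 1.14 ± 0.16 (SE, adjusted p = 1.86e-05) for anergic against Treg, 0.98 ± 0.16 (adjusted p = 9.38e-05) for Treg against Teff and 3.30 ± 0.18 (adjusted p = 7.36e-12) for Teff against naive. Anergic against Teff gave 2.11 ± 0.16 (adjusted p = 4.11e-09). Against naive, anergic cells gave 5.42 ± 0.18 (adjusted p = 9.67e-16) and Treg cells 4.28 ± 0.18 (1.15e-13). None of these 6 calls was lost under any of the 21 alternatives run.

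The peak at 80.2 kb upstream (chr2:102981449-102982192), the outermost of the locus, had the same order of means. Its signal was 24.4 and 3.87 in naive, 108, 154 and 115 in Teff, 768, 775 and 686 in anergic, and 440, 438 and 519 in Treg libraries. Again no groups overlapped, and the naive values rested on 30 and 5 reads. The mean was 743 ± 49.1 (SD, n = 3) in anergic against 126 ± 25.0 (SD, n = 3) in Teff cells, a log2 fold change of 2.57 ± 0.35 (SE, limma adjusted p = 6.68e-06). Treg cells, at 466 ± 46.0 (SD, n = 3), were higher than Teff cells by 1.89 ± 0.35 (adjusted p = 0.000273). Anergic against Treg gave 0.67 ± 0.35 and was not called by limma over all libraries (adjusted p = 0.146). It was called by edgeR (adjusted p = 0.0463), by DESeq2 (0.00418), with 10 added before the log (0.0313), with only the compared groups in the fit (0.000722) and without naive replicate 1 (0.00752) or 2 (0.00548). Against naive cells, at 14.1 ± 14.5 (SD, n = 2), the changes were 6.06 ± 0.39 (adjusted p = 2.46e-11) for anergic, 5.39 ± 0.39 (3.92e-10) for Treg and 3.49 ± 0.39 (3.11e-07) for Teff. Their sizes depended on the naive library used: anergic against naive was 7.25 without naive replicate 1 and 4.87 without naive replicate 2, and Teff against naive 4.68 and 2.30. Teff against naive was 2.13 after quantile normalisation, still called.

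The intronic peak at 48.2 kb (chr2:102853331-102853543) followed the same order at a lower level. It read 0.812 and 8.52 in naive libraries (1 and 11 reads), 22.8, 39.6 and 30.0 in Teff, 123, 136 and 106 in anergic, and 98.0, 70.2 and 106 in Treg libraries. Teff and naive libraries lay below both other groups, which overlapped. Its log2 fold change was 1.97 ± 0.47 (SE, limma adjusted p = 0.00225) for anergic against Teff and 4.88 ± 0.53 (adjusted p = 7.37e-08) for anergic against naive. The latter was 3.68 without naive replicate 1, 6.07 without naive replicate 2, 3.03 after quantile normalisation and 3.21 with 10 added before the log, and was called in each case. Treg cells were higher than naive cells by 4.46 ± 0.53 (adjusted p = 5.13e-07; 2.50 and 2.83 with those same changes, still called) and than Teff cells by 1.55 ± 0.47 (adjusted p = 0.0146). The Treg against Teff call was lost without Teff replicate 1 (adjusted p = 0.0611), Treg replicate 1 (0.0515) or Treg replicate 3 (0.0602). Teff against naive was 2.90 ± 0.53 (adjusted p = 0.000129) but 0.85 (0.181) after quantile normalisation, 1.51 with 10 added before the log, and 1.71 and 4.10 without naive replicates 1 and 2. Anergic and Treg cells did not differ past the threshold here (adjusted p = 0.521).

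The neighbouring peaks at 47.0 kb (chr2:102948504-102948861) and 46.6 kb upstream (chr2:102948135-102948391) had centres 0.419 kb apart. The first read 50.4 and 72.0 in naive, 315, 267 and 268 in Teff, 284, 303 and 220 in anergic, and 270, 196 and 304 in Treg libraries. Its Teff, anergic and Treg groups overlapped, at means of 283 ± 27.4, 269 ± 43.1 and 257 ± 55.3 (SD, n = 3 each), all above naive at 61.2 ± 15.3 (SD, n = 2). Against naive the log2 fold changes were 2.21 ± 0.23 for Teff (SE, limma adjusted p = 1.20e-07), 2.13 ± 0.23 for anergic (9.57e-08) and 2.05 ± 0.23 for Treg (3.05e-07). Anergic against Teff was -0.08 ± 0.21 (adjusted p = 0.805).

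The second neighbour, at 46.6 kb, read 9.75 and 11.6 in naive, 199, 126 and 190 in Teff, 64.7, 101 and 100 in anergic, and 89.0, 59.6 and 70.9 in Treg libraries. All Teff libraries lay above all anergic and Treg libraries. It was the 1 Cd44 peak lower in anergic than in Teff cells, by -0.95 ± 0.30 on the log2 scale (SE, limma adjusted p = 0.0189). That call was lost without Teff replicate 1 (adjusted p = 0.0969), Teff replicate 3 (0.0680) or anergic replicate 1 (0.0938). Treg cells were lower than Teff cells by -1.21 ± 0.30 (adjusted p = 0.00390). Against naive, Teff rose by 3.86 ± 0.34 (adjusted p = 7.49e-09), anergic by 2.92 ± 0.34 (2.22e-07) and Treg by 2.65 ± 0.34 (1.54e-06). After quantile normalisation these rises were 2.53, 1.52 and 1.13, all still called.

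A ratio of these neighbours within a library does not depend on the library's scaling. The 46.6 kb peak had 0.631, 0.474 and 0.708 times the signal of the 47.0 kb peak in Teff, 0.228, 0.334 and 0.454 in anergic, 0.329, 0.304 and 0.233 in Treg, and 0.194 and 0.161 in naive libraries. The 3 Teff ratios lay above all others. The mean log2 ratio was 0.87 higher in Teff than in anergic and 1.06 higher than in Treg cells, each with a two-sided exact permutation p of 0.1, the smallest that 3 against 3 libraries allow, and 0.15 after adjustment over 6 such comparisons. Anergic against Treg gave 0.19 (exact permutation p = 0.6). The neighbouring intronic peaks at 14.1 and 14.9 kb, 0.837 kb apart, were compared the same way, and both pairs were chosen after their values were seen. The 14.1 kb peak had 0.165, 0.172 and 0.189 times the signal of the 14.9 kb peak in Teff, 0.419, 0.301 and 0.324 in anergic, 0.288, 0.415 and 0.266 in Treg, and 0.120 and 0.0955 in naive libraries. In this pair the Teff ratios lay below all anergic and Treg ratios, with log2 differences of -0.98 and -0.85 (exact permutation p = 0.1 each, 0.15 adjusted).

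**Figure D4:**
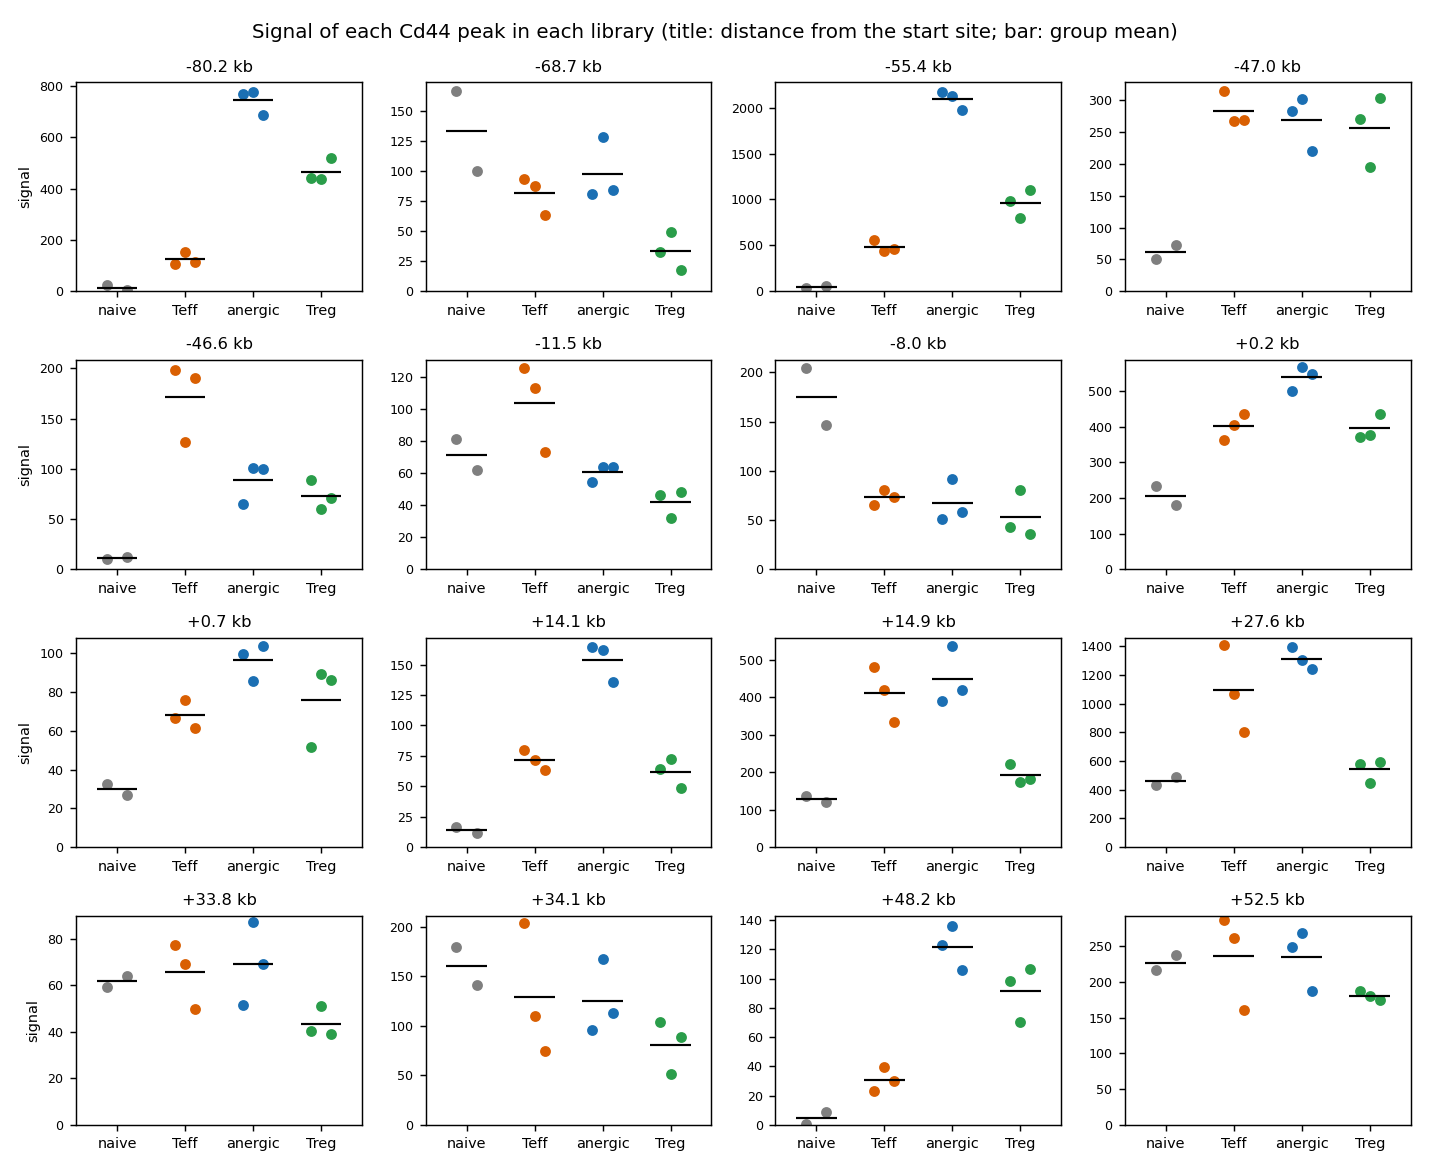
Deposited signal (vertical axis, own scale per panel, starting at 0) of each Cd44 peak in each library, 1 panel per peak titled by its distance from the start site in kb, with points for libraries and bars for group means. The Teff points are highest at 46.6 kb upstream (126 to 199), the anergic points at 55.4 kb upstream (1978 to 2170), and the naive points at 7.99 kb upstream (146 and 204).

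The promoter peak (chr2:102901172-102901795) spans the start site and the first exon, with its centre 0.182 kb inside the gene. It read 233 and 179 in naive, 363, 404 and 435 in Teff, 501, 567 and 548 in anergic, and 372, 377 and 437 in Treg libraries. The anergic libraries were the highest, the naive libraries the lowest, and Teff and Treg overlapped. The range between subsets was smaller than at the distal peaks above: means were 206 ± 38.4 (SD, n = 2), 401 ± 35.9, 539 ± 34.2 and 395 ± 36.2 (SD, n = 3 each) in naive, Teff, anergic and Treg. Against naive, the log2 fold changes were 1.39 ± 0.17 for anergic (SE, limma adjusted p = 5.27e-07), 0.97 ± 0.17 for Teff (0.000107) and 0.94 ± 0.17 for Treg (0.000122).

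Anergic cells were also higher at the promoter than Teff cells, by 0.43 ± 0.15 (limma adjusted p = 0.0363), and than Treg cells, by 0.45 ± 0.15 (adjusted p = 0.0283). Both of these smaller calls depended on the processing. With scaling by total reads the adjusted p was 0.0514 against Teff and 0.120 against Treg. The call against Teff was lost without Teff replicate 1 (0.139) or 2 (0.0840) and without anergic replicate 2 (0.0957) or 3 (0.0949). The call against Treg was lost by edgeR (0.0563), after quantile normalisation (0.0697), without anergic replicate 2 (0.0831) or 3 (0.0774) and without Treg replicate 1 (0.0918) or 2 (0.0822). Teff and Treg promoters did not differ past the threshold (adjusted p = 0.935).

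The peak just inside the gene at 0.703 kb (chr2:102900871-102901053) read 32.5 and 27.1 in naive, 66.5, 76.0 and 61.7 in Teff, 99.5, 85.9 and 104 in anergic, and 51.8, 89.4 and 86.1 in Treg libraries. Naive libraries lay below all others. It was higher than naive by 1.66 ± 0.33 in anergic (SE, limma adjusted p = 0.000214), 1.28 ± 0.33 in Treg (0.00321) and 1.16 ± 0.33 in Teff cells (0.00744). After quantile normalisation the anergic value was 0.95 and still called, and the Teff and Treg values of 0.46 and 0.44 fell short (adjusted p = 0.309 and 0.324), as did Teff without naive replicate 2 (0.0627). No pair among Teff, anergic and Treg cells passed.

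The intronic peak at 27.6 kb (chr2:102873683-102874532) had the largest signal of the locus in naive and Teff cells. Per 100 bases it held 129 units of signal in Teff cells, above every other Cd44 peak, and 54.1 in naive cells, where the peak at 52.5 kb held 69.1 and the peak at 55.4 kb upstream 5.35. It read 431 and 488 in naive, 1408, 1069 and 803 in Teff, 1394, 1307 and 1242 in anergic, and 582, 447 and 595 in Treg libraries. Teff and anergic overlapped at a high level, and Treg overlapped with naive at a low one. It was higher than naive by 1.51 ± 0.18 in anergic (SE, limma adjusted p = 3.95e-07) and by 1.21 ± 0.18 in Teff cells (1.51e-05), while Treg against naive was 0.23 (adjusted p = 0.332). Treg cells were lower than Teff cells by -0.99 ± 0.16 (adjusted p = 8.07e-05), and anergic cells higher than Treg cells by 1.29 ± 0.16 (4.02e-06). Anergic against Teff was 0.30 (adjusted p = 0.175), but 0.50 (0.0224) without Teff replicate 1, which had the highest Teff value, and 0.10 (0.705) without Teff replicate 3, which had the lowest.

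The intronic peak at 14.9 kb (chr2:102886409-102887086) had the same order of means as the one at 27.6 kb. It read 136 and 122 in naive, 482, 419 and 335 in Teff, 391, 538 and 419 in anergic, and 223, 175 and 181 in Treg libraries. All Treg libraries lay below all Teff and anergic libraries. Treg against Teff was -1.08 ± 0.18 (SE, limma adjusted p = 9.87e-05) and anergic against Treg 1.21 ± 0.18 (3.12e-05). Teff rose against naive by 1.66 ± 0.20 (adjusted p = 1.08e-06) and anergic by 1.79 ± 0.20 (1.82e-07). Treg against naive was 0.57 ± 0.20 (adjusted p = 0.0264), a call lost after quantile normalisation (0.0626) and without naive replicate 1 (0.0603) or 2 (0.145) or Treg replicate 1 (0.100).

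Its neighbour at 14.1 kb (chr2:102887431-102887738) was highest in anergic cells. It read 16.2 and 11.6 in naive, 79.6, 71.9 and 63.3 in Teff, 164, 162 and 136 in anergic, and 64.2, 72.4 and 48.1 in Treg libraries. All anergic libraries lay above all others, and Teff and Treg overlapped. Anergic cells were higher than Teff cells by 1.09 ± 0.30 (SE, limma adjusted p = 0.00603) and than Treg cells by 1.32 ± 0.30 (0.00158). Against naive the rises were 3.39 ± 0.33 in anergic (adjusted p = 1.61e-08), 2.29 ± 0.33 in Teff (8.41e-06) and 2.06 ± 0.33 in Treg cells (2.79e-05). After quantile normalisation they were 2.17 and 1.08, still called, and 0.65 for Treg (0.110), which was not.

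The naive mean was the highest at 3 Cd44 peaks, of which the peak at 7.99 kb upstream was called lower in each other subset. The peak at 7.99 kb upstream (chr2:102909515-102909790) read 204 and 146 in naive, 65.1, 80.1 and 73.3 in Teff, 51.4, 91.7 and 57.8 in anergic, and 42.8, 80.9 and 35.5 in Treg libraries. Both naive libraries lay above all others, and the other groups overlapped. It fell against naive by -1.78 ± 0.36 in Treg (SE, limma adjusted p = 0.000388), -1.40 ± 0.36 in anergic (0.00251) and -1.24 ± 0.36 in Teff cells (0.00880). Without naive replicate 1 the anergic and Teff values did not pass (adjusted p = 0.0554 and 0.125).

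The peak at 68.7 kb upstream (chr2:102970308-102970508) was lowest in Treg cells. It read 167 and 99.9 in naive, 93.5, 87.5 and 63.3 in Teff, 81.2, 128 and 84.0 in anergic, and 32.7, 49.0 and 17.7 in Treg libraries. Every Treg library lay below every other library. Treg fell by -2.04 ± 0.39 against naive (SE, limma adjusted p = 0.000198) and by -1.36 ± 0.35 against Teff cells (0.00443), and anergic cells were higher than Treg cells by 1.61 ± 0.35 (0.00116). It lies between the peaks at 80.2 and 55.4 kb, which were both higher in Treg than in Teff cells.

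The peak at 11.5 kb upstream (chr2:102913129-102913285) read 81.2 and 61.9 in naive, 126, 113 and 73.3 in Teff, 54.7, 63.8 and 63.8 in anergic, and 46.2, 31.9 and 48.1 in Treg libraries. All Teff libraries lay above all anergic and Treg libraries, and only Treg against Teff passed, at -1.27 ± 0.31 (SE, limma adjusted p = 0.00278). Anergic against Teff was -0.73 (adjusted p = 0.0713), and passed by edgeR (0.0431), by DESeq2 (0.0405) and without Teff replicate 3 (0.0266).

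Of the last 3 peaks, 1 was called, in 1 comparison. At 34.1 kb in the gene (chr2:102867454-102867711) the signal was 180 and 141 in naive, 204, 110 and 75.0 in Teff, 96.2, 168 and 113 in anergic, and 104, 51.1 and 88.6 in Treg libraries. The Teff libraries overlapped with all other groups. Treg against naive was -1.02 ± 0.37 (SE, limma adjusted p = 0.0264), a call lost with scaling by total reads (0.0679), by edgeR (0.0524) and without naive replicate 1 (0.174) or Treg replicate 2 (0.135). The peaks at 33.8 kb (chr2:102867825-102867963) and 52.5 kb (chr2:102848971-102849298) were called in no comparison. The first read 39.3 to 87.5 and the second 160 to 286 over all libraries.

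Across the 11 libraries, the peaks at 55.4 kb upstream and 48.2 kb within the gene, 103.6 kb apart, had a Pearson r of 0.96 on the log2 scale, and the intronic peaks at 14.9 and 27.6 kb one of 0.95. The lowest value, -0.84, was between the peaks at 47.0 and 7.99 kb upstream. These are descriptions over 11 libraries in 4 groups: the peaks share libraries and their scaling, and r mostly follows the group means.

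Among 803 genes with at least 8 peaks, those whose mean log2 signal over all their peaks was most like that of Cd44 over the 11 libraries were Arhgef3 (r = 0.99, 31 peaks), Utrn (0.99, 13 peaks), Ifng (0.98, 11 peaks), Nedd9 (0.98, 10 peaks) and Akap11 (0.98, 10 peaks). Cd44 means were 5.92, 7.25, 7.73 and 7.01 in naive, Teff, anergic and Treg. Those of Ifng, which encodes the cytokine interferon gamma, were 5.48, 7.51, 7.99 and 7.08. For the peak at 80.2 kb upstream, which had the widest log2 range of group means with both naive libraries in the mean, the peaks most like it on other chromosomes lay nearest to Akap13, Cep43, Inpp5f, Slco3a1 and Ccdc80, with r from 0.994 to 0.997. The Akap13 peak (chr7:75387825-75388420) read 7.25, 101, 691 and 377 on average in naive, Teff, anergic and Treg. That choice of peak rests on naive replicate 2: without it, anergic against naive was 6.07 at 48.2 kb in the gene, 5.74 at 55.4 kb upstream and 4.87 at 80.2 kb upstream. These likenesses were ranked over all such genes and peaks and carry no test.

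The rule set the borders of the locus at the midpoint to the next start site. Just outside the outermost upstream peak, 2 peaks nearest to Pdhx lay 96.9 and 97.7 kb upstream of the Cd44 start site. The nearer (chr2:102998392-102998768) averaged 59.7, 187, 290 and 212 and the further (chr2:102998876-102999824) 122, 508, 737 and 751 in naive, Teff, anergic and Treg. On the far side of the gene, the next peak was nearest to Gm13872, 168 kb downstream of the Cd44 start site (chr2:102733147-102733612), and averaged 15.96, 104, 228 and 110. The outermost members averaged 14.1, 126, 743 and 466 at 80.2 kb upstream and 227, 236, 235 and 181 at 52.5 kb in the gene.

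Other genes of the CD44 pathway were taken from lists written from general knowledge with earlier results of these data known, and a list's counts are of peaks nearest to its genes. The leading peak of a gene is the 1 with the smallest adjusted p in the list for that comparison. Of 16 genes for CD44 ligands and hyaluronan turnover, 7 had a peak, 28 in all. Of these, 23 (82.1%) were higher and 0 lower in anergic than in naive cells, beside 25.3% and 25.1% of all peaks. The counts were 18 (64.3%) and 0 in Teff against naive, beside 22.7% and 17.4%, and 19 (67.9%) and 0 in Treg against naive, beside 22.3% and 23%. No peak of this list was lower than naive at an unadjusted limma p under 0.05 in those 3 comparisons either. Anergic against Teff gave 12 higher and 3 lower (42.9% and 10.7%, beside 15.9% and 16.8% of all peaks), and anergic against Treg 12 and 1 (42.9% and 3.57%, beside 19.4% and 14.8%). The 1 peak of Has1, which encodes a hyaluronan synthase, averaged 374 ± 42.4 in anergic and 84.3 ± 32.8 (SD, n = 3 each) in Teff cells, a log2 fold change of 2.20 ± 0.28 (SE, limma adjusted p = 2.33e-06). Cemip2, linked to hyaluronan breakdown at the cell surface, had 9 of 9 peaks higher in anergic than in naive cells. The 1 with the smallest adjusted p, 85.4 kb downstream of the Cemip2 start site, averaged 403 in anergic and 1.61 in naive cells, near the level of single reads. The median log2 fold change of the list was 1.21 for anergic against naive, beside -0.04 over all peaks.

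Partner receptors and the proteases that shed CD44 had 60 peaks at 11 of 13 genes. Here 25 were higher and 9 lower in anergic than in naive cells (41.7% and 15%, beside 25.3% and 25.1% of all peaks). Against Teff cells the counts were 21 and 11 (35.0% and 18.3%, beside 15.9% and 16.8%), and against Treg cells 18 and 4 (30.0% and 6.67%, beside 19.4% and 14.8%). Teff against naive gave 25 higher and 11 lower (41.7% and 18.3%, beside 22.7% and 17.4%), and Treg against naive 22 and 12 (36.7% and 20.0%, beside 22.3% and 23%). The lower shares against Teff and in both Teff and Treg against naive were close to those of all peaks. Itgb1, the beta chain of integrins that partner with CD44, had 13 of 13 peaks higher in anergic than in naive cells. Its leading peak (chr8:128549640-128550524) averaged 11.9 ± 2.65 (SD, n = 2) in naive, 622 ± 76.7 in Teff, 1487 ± 161 in anergic and 570 ± 33.0 (SD, n = 3 each) in Treg cells. Itga4, the alpha chain of an integrin that forms a complex with CD44 on activated T cells, had 8 of 11 peaks higher in anergic than in Teff cells, the leading one at 1155 ± 31.8 against 196 ± 26.5 (SD, n = 3 each) with a log2 fold change of 2.56 ± 0.16 (SE, limma adjusted p = 2.74e-10).

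Cytoskeletal linkers and signalling proteins had 114 peaks at 15 of 17 genes, of which 57 were higher and 22 lower in anergic than in naive cells (50% and 19.3%, beside 25.3% and 25.1% of all peaks). Against Teff cells 36 were higher and 21 lower (31.6% and 18.4%, beside 15.9% and 16.8%), and against Treg cells 45 and 9 (39.5% and 7.89%, beside 19.4% and 14.8%). Teff against naive gave 58 higher and 10 lower (50.9% and 8.77%, beside 22.7% and 17.4%), and Treg against naive 50 and 23 (43.9% and 20.2%, beside 22.3% and 23%). Fyn, a kinase of T cell receptor signalling that associates with CD44, had 22 of 24 peaks higher in anergic than in Treg cells. The leading one, 100.7 kb downstream of the Fyn start site, averaged 707 ± 8.79 against 153 ± 33.3 (SD, n = 3 each). Its log2 fold change was 2.22 ± 0.18 (SE, limma adjusted p = 1.61e-08). The leading Iqgap1 peak, at a scaffold protein that binds actin, rose by 2.49 ± 0.14 in Teff against naive cells (adjusted p = 8.57e-12). That of Tiam1, an activator of RAC, rose by 5.22 ± 0.27 in Treg against naive cells (adjusted p = 2.45e-12).

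Regulators of Cd44 splicing had 27 peaks at 9 of 10 genes, with 4 higher and 5 lower in anergic against naive cells (14.8% and 18.5%, beside 25.3% and 25.1% of all peaks), 3 and 3 in Teff (11.1% each, beside 22.7% and 17.4%) and 4 and 7 in Treg (14.8% and 25.9%, beside 22.3% and 23%). Anergic against Teff gave 2 and 4 (7.41% and 14.8%, beside 15.9% and 16.8%) and anergic against Treg 2 and 3 (7.41% and 11.1%, beside 19.4% and 14.8%). All but 1 of these shares were below those of all peaks. Khdrbs1, an RNA-binding protein that promotes inclusion of Cd44 variable exons, had the smallest adjusted p of the list in every one of these comparisons. Its leading peak fell by -1.91 ± 0.23 in anergic against naive cells (SE, limma adjusted p = 2.88e-07). Activation, memory and adhesion receptors had 154 peaks at 16 of 19 genes with calls in both directions. In anergic against naive cells 31 were higher and 67 lower (20.1% and 43.5%, beside 25.3% and 25.1% of all peaks), and in Teff against naive 29 and 47 (18.8% and 30.5%, beside 22.7% and 17.4%). Treg against naive gave 37 and 40, near the shares of all peaks (24.0% and 26.0%, beside 22.3% and 23%). Anergic cells had 17 higher and 45 lower than Teff cells (11.04% and 29.2%, beside 15.9% and 16.8%) and 15 higher and 60 lower than Treg cells (9.74% and 39.0%, beside 19.4% and 14.8%). Il2rb, a chain of the IL-2 and IL-15 receptors, had 5 of 5 peaks higher in anergic than in naive cells. Selplg, a selectin ligand, had 10 of 12 lower in anergic than in Teff cells, and Cd2, an adhesion receptor, 15 of 20 lower in anergic than in Treg cells. Icam2, an adhesion ligand, had 1 of 5 peaks higher and 0 lower in Teff than in naive cells. That peak, 33.8 kb upstream of the Icam2 start site, rose by 6.39 ± 0.27 (limma adjusted p = 1.79e-13).

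The other sort markers were compared at their leading peaks. Nt5e (CD73) was higher in anergic than in Teff cells by 2.15 ± 0.22 (SE, limma adjusted p = 1.65e-07), Il2ra (CD25) was lower in anergic than in Treg cells by -3.68 ± 0.28 (6.09e-09), and the Foxp3 peak was higher in Treg than in naive cells by 6.78 ± 0.45 (9.83e-11). Izumo1r (FR4) was higher in Teff than in naive cells by 1.73 ± 0.20 (limma adjusted p = 5.87e-07), where 3 of its 7 peaks were higher and 2 lower. In anergic against Teff, Nt5e had 4 of 5 peaks higher and 1 lower. In anergic against Treg, Il2ra had 0 of 13 higher and 10 lower. For the other markers of the anergic gate, whose values here were chosen after the rest were seen, anergic against Teff gave 4 of 7 Izumo1r peaks higher and 0 lower, and 1 of 3 Nrp1 peaks higher and 0 lower. Their leading peaks were higher by 1.08 ± 0.17 (limma adjusted p = 3.47e-05) and 0.91 ± 0.14 (3.05e-05). The 1 Foxp3 peak averaged 131 ± 46.4 in anergic and 31.1 ± 27.9 (SD, n = 3 each) in Teff cells, both sorted as FOXP3–, a log2 fold change of 2.33 ± 0.41 (0.000106, limma adjusted p). Over all 33 peaks of these 6 genes, 11 were higher and 6 lower in anergic than in Teff cells (33.3% and 18.2%, beside 15.9% and 16.8% of all peaks) and 5 and 13 against Treg cells (15.2% and 39.4%, beside 19.4% and 14.8%). Against naive cells 15 and 9 were higher and lower in anergic (45.5% and 27.3%, beside 25.3% and 25.1%), 9 and 6 in Teff (27.3% and 18.2%, beside 22.7% and 17.4%) and 19 and 4 in Treg cells (57.6% and 12.1%, beside 22.3% and 23%). Depth ranged from 14.7 to 68.8 M reads in peaks per library, and 1 read was worth 0.527 to 2.13 units of signal. CD4 T cell genes had peaks for 9 of 10 markers, all but Trac, and their summed signal was 37523 to 43439 over all libraries. B cell markers had peaks for 4 of 10 genes, with none nearest to Ms4a1 or Cd79a, and sums of 543 to 804. Markers of CD8, NK and innate-like T cells had peaks for 5 of 9 genes (sums of 19545 to 29557), and those of erythroid cells and platelets for 4 of 8 (3412 to 5020). Myeloid and dendritic markers had 10 peaks at 4 of 11 genes: Itgam, Adgre1, Cebpa and Zbtb46. None lay nearest to Lyz2, Csf1r, Cd14, Fcgr3, Siglech, Clec9a or Flt3. The sum over these 10 peaks was 1243 to 1376 in naive, 2222 to 2885 in Teff, 3983 to 4405 in anergic and 2591 to 2668 in Treg libraries. It moved with the Cd44 signal, was not split by gene, and its part in the Cd44 results was not tested.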

How the data were processed

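ATAC-seq libraries (n = 2 naive and 3 each of Teff, anergic and Treg) were analysed from 1 deposited table of signal per peak. Per the submitters' notes and the series' design text, reads were trimmed (Trimmomatic 0.38.1), aligned to mm10 (Bowtie2 2.3.3.1, SAMtools 1.13) and called as peaks per sample with duplicates removed and cut sites adjusted (Genrich 0.5), and DiffBind 2.10.0 gave 38509 consensus peaks. Dividing each deposited signal column by its smallest value gave whole numbers (within 0.01) for 100% of values, so the deposited signal was read as reads times a library factor, whose method is not given in the sources used here. No column was left unmapped. Depth was 14.7 to 68.8 M reads in peaks. The lowest entry was 1 read, so such entries may stand for no reads. It was held by 293 and 368 peaks in the naive libraries and by 17 to 31 in each other library. Coordinates are as the file gives them, where the width counts both ends, and may differ by 1 base from a browser.

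Each peak was given to the nearest RefSeq (GRCm38.p6) start site among 45756 transcripts, measured from its centre. limma-trend (limma 3.58.1, R 4.3.3) was fitted to log2(signal + 1) over all 11 libraries with group as the only term, after filterByExpr of edgeR 4.0.16 removed 16 peaks and left 38493, with all 16 Cd44 peaks kept. Tests are two-sided with Benjamini-Hochberg adjustment and a threshold of 0.05. Alternatives were scaling by total reads, quantile normalisation, edgeR quasi-likelihood and DESeq2 1.42.0 on the recovered read counts, pseudocounts of 0.5 and 10, no filter, a threshold of 0.01, only the groups compared, a replicate block, each library left out, and only peaks within 100 kb. limma was also run on simulated data, whose outcome is not given here and on which no result above rests. The Cd44 peaks, gene lists and motifs were chosen with earlier results of these data known. Named peaks were all those called in at least 1 comparison with the promoter, pathway genes those with the smallest adjusted p per list and comparison, and like genes and peaks the 5 with the highest r. RNA-seq was not analysed here.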

Additional observations from a re-analysis of the deposited data

How the results depend on the processing

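Of the 96 tests of a Cd44 peak, 54 were called and 42 of these stayed called under all 21 alternatives run. The other 12 were lost under at least 1 alternative, 9 of them when 1 library was left out, and 8 uncalled tests gained a call. The fold change changed sign in 0 of the called tests and in 14 of the uncalled ones, in 0 of these with a call on the other side. The number of Cd44 peaks lower in anergic than in Teff cells was 1, became 2 by edgeR and 2 by DESeq2 and 0 at a threshold of 0.01, and ranged from 0 to 1 when 1 library was left out, with 0 without Teff replicate 1 or anergic replicate 1. The numbers lower in anergic and in Teff than in naive cells, 1 each, ranged from 0 to 1, with 0 without naive replicate 1. The number lower in Treg than in naive cells went from 3 to 5 after quantile normalisation, which added the peaks at 11.5 kb upstream (adjusted p = 0.0118) and 33.8 kb in the gene (0.0319). Treg against Teff gained lower calls at 7.99 kb upstream without Treg replicate 2 (0.0471) and, without Teff replicate 3, at 34.1 kb (0.0339) and 52.5 kb (0.0279) in the gene. The cause of these changes was not tested. With the replicate block, the counts higher and lower were 5 and 1 for anergic against Teff, 10 and 1 for anergic against naive, 6 and 0 for anergic against Treg, 10 and 1 for Teff against naive, 9 and 3 for Treg against naive and 3 and 5 for Treg against Teff, as without it. Samples of different groups were correlated on what remained after the group means were taken out, so low values do not mean that libraries were unlike. These correlations ran from -0.11 to 0.16 for same-numbered samples, with 4 of 15 over 0.1. Those of different-numbered samples ran from -0.22 to 0.19, with 4 of 30 over 0.1. The 2 naive libraries gave equal values of opposite sign, so the values are not independent of each other. With so few libraries per group, these values cannot show whether equal numbers share an animal or a day. All Cd44 peaks lay within 100 kb, so that limit changed no count, and the locus sums moved by less than their SD with scaling by total reads.

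Over all peaks, the number lower in Treg than in naive cells went from 8867 to 5721 with scaling by total reads and to 5242 without naive replicate 1. The number lower in Teff than in naive cells went from 6679 to 3645 without naive replicate 1 and to 4093 at a threshold of 0.01. At that threshold, anergic against Treg went from 7462 higher and 5680 lower to 4668 and 3634, and Treg against Teff from 5535 and 6998 to 3518 and 4507. The naive group has only 2 libraries, and at the peaks 80.2 kb upstream and 48.2 kb in the gene its reads were 30 and 5, and 1 and 11, so the size of the change there is known only roughly.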
